A study of Mus musculus with 3 samples.

Results

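H3K4me3 peaks called in the hippocampus of Huntington's disease model mice, with no overlapping peak called in wild-type littermates, are described here. Each lay beside a peak called in both genotypes. H3K4me3 is trimethylation of lysine 4 on histone H3. The HD library came from N171-82Q transgenic mice, which express an N-terminal fragment of mutant huntingtin from a transgene driven by the mouse prion protein promoter. The WT library came from their wild-type littermates. Both groups were adult male C57/DBA F1 hybrids, each library was made from whole hippocampi of 3 pooled mice, and an input DNA library was not analysed here. There was 1 library per genotype, so none of the differences below has a replicate error. All intervals are 95% intervals over peaks or regions. They cover counting error only and say nothing of variation between mice.

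The flanking HD-only peaks were chosen by position. No WT peak overlapped them by even 1 bp, and the gap to the nearest HD peak with a WT counterpart (a shared peak) was at most 10 kb. The rule selected 551 of 19631 HD peaks, or 2.81%. Over the whole HD list 9.30% of peaks, 1825 in number, had no WT counterpart, so the flanking peaks made up 30.2% of the HD-only peaks and the other 1274 lay farther away. Absence of a WT counterpart and the gap limit define the set and are not results. The depth of the libraries is unknown, so a missing WT peak does not show that the mark was absent in WT. The flanking peaks covered 630 kb in all, 1.44% of the 43.8 Mb under HD peaks.

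H3K4me3 is laid down by the SET1 and MLL families of methyltransferases and marks the nucleosomes around the starts of active and poised genes. It usually forms a strong domain at the promoter, and its width varies from gene to gene. Weaker H3K4me3 also occurs at alternative promoters and at some active enhancers, which can lie close to a main promoter. A peak caller reports separate peaks where the signal between them falls below its threshold, so a gap is a property of the calls as well as of the chromatin.

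Most flanking peaks lay well within the limit. The gap to the shared HD peak ran from 19 to 9993 bp, with a median of 3333 bp (interval 3007 to 3780 bp) and quartiles of 1174 and 6525 bp. The limit and the overlap rule set this value: the median was 1605 bp with a limit of 5 kb, 6690 bp with 20 kb and 1436 bp when a counterpart had to overlap by 50% of both peaks. Under 1 kb away were 116 peaks, 83 lay 1 to 2 kb away, 151 lay 2 to 5 kb away and 201 lay 5 to 10 kb away. At most 100 bp separated 26 of them from the shared peak. The shared peak was on the right of the flanking peak in 286 cases and on the left in 265, so neither side of the chromosome was preferred beyond counting error. A shared HD peak within 10 kb on both sides was found for 85, or 15.4% (12.5 to 18.7%).

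Measured per length of sequence, HD-only peaks were densest directly beside shared peaks. There were 3.38 HD-only peaks per Mb of sequence under 1 kb from a shared HD peak, 2.51 at 1 to 2 kb, 1.62 at 2 to 5 kb and 1.46 at 5 to 10 kb. The density was 1.10 per Mb at 10 to 50 kb and 0.351 beyond 50 kb. WT-only peaks, counted around shared WT peaks, followed the same order, with 2.99 per Mb under 1 kb, 1.51 at 1 to 2 kb, 0.71 at 2 to 5 kb and 0.62 at 5 to 10 kb.

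**Figure D1:**
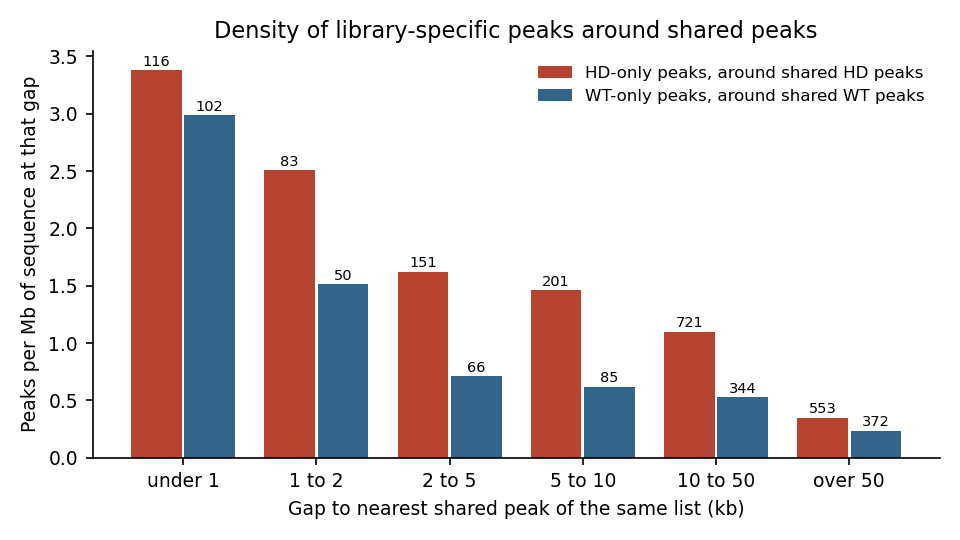
Peaks found in 1 library per Mb of sequence (vertical axis) by gap to the nearest shared peak of the same list in kb (horizontal axis), with the number of peaks above each bar. HD bars fall from 3.38 per Mb under 1 kb to 0.351 beyond 50 kb, and the HD and WT bars are closest in relative height under 1 kb.

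The excess of HD-only over WT-only peaks was not even across these distances. Within 10 kb of a shared peak of their own list there were 551 HD-only and 303 WT-only peaks, a ratio of 1.82, and beyond 10 kb the ratio was 1.78. Under 1 kb, however, 116 HD-only peaks faced 102 WT-only peaks, and HD-only peaks were 53.2% of both kinds together (46.4 to 59.98%). At 5 to 10 kb, 201 HD-only peaks faced 85 WT-only peaks, a share of 70.3% (64.6 to 75.5%). At 1 to 2 kb the share was 62.4% (53.6 to 70.7%), and at 2 to 5 kb it was 69.6% (63.0 to 75.6%). The interval at 1 to 2 kb overlapped those of the classes on either side of it. At 10 to 50 kb the share was 67.7% (64.8 to 70.5%), and beyond 50 kb it was 59.8% (56.5 to 63.0%). The depth of the libraries is unknown, and its part in these counts was not tested.

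Lying within 10 kb of a shared peak was about as frequent among HD-only peaks as among shared peaks themselves. The share was 30.2% of HD-only peaks (28.1 to 32.4%), against 29.0% of shared HD peaks that had another shared HD peak within 10 kb (28.3 to 29.7%). Shared HD peaks of similar weakness, with a score below 100, had such a neighbour more often, in 37.3% of cases (34.8 to 39.9%), against 29.9% of HD-only peaks below 100 (27.6 to 32.4%). Among WT-only peaks the share was 29.7% (26.9 to 32.6%).

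The score is the authors' value for each peak and is compared here only within a list. In the HD list it runs from 50.01 to 3233.06. Flanking peaks were weak on this scale, with a median of 69.4 (66.3 to 71.6) and quartiles of 57.99 and 93.27. Far HD-only peaks had the same median to 3 digits, 69.4 (67.9 to 71.2), and shared HD peaks had a median of 1367. A score of at least 100 was reached by 117 flanking peaks, 21.2% (17.9 to 24.9%), and by 258 far HD-only peaks, 20.3% (18.1 to 22.6%). A score of at least 200 was reached by 6 flanking peaks. The highest flanking score was 279.52, whereas the far HD-only peaks reached 698.55.

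The flanking peaks were also narrow. Their median width was 1085 bp (1048 to 1111 bp), with quartiles of 899.5 and 1292 bp and a range of 437 to 3219 bp. Narrower than 1.5 kb were 481 of the 551, and 15 were 2 kb or wider. Far HD-only peaks had a median width of 1018 bp (1001 to 1035 bp), and shared HD peaks 2163 bp. Among far HD-only peaks the median was 1048 bp at 10 to 50 kb (1025 to 1073 bp) and 978 bp beyond 50 kb (957 to 1004 bp). The interval at 10 to 50 kb overlapped that of the flanking peaks. WT-only peaks had a median of 1256 bp when flanking (1217 to 1296 bp) and 1096 bp when far (1076 to 1115 bp). The small difference of flanking HD-only peaks from all far ones together was also seen among weak peaks. Below a score of 100 the median was 1038 bp in the 434 flanking peaks (1008 to 1075 bp), 981 bp in the 1016 far HD-only peaks (969 to 1000 bp) and 1042 bp in the 1420 shared HD peaks (1030 to 1057 bp). The intervals of weak flanking and weak shared peaks overlapped. At scores of at least 100 the median was 1264 bp in flanking peaks (1219 to 1328 bp) and 1245 bp in far HD-only peaks (1185 to 1282 bp), and the intervals overlapped.

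Neither score nor width changed much with distance. Median scores were 65.1 under 1 kb, 73.5 at 1 to 2 kb, 69.8 at 2 to 5 kb and 70.1 at 5 to 10 kb, and their intervals overlapped. Median widths were 1132, 1095, 1075 and 1057 bp in the same order. Across the 551 peaks, Spearman's rho was 0.056 between gap and score, -0.047 between gap and width, and 0.44 between score and width. These describe peaks of 1 library that share its depth, and peaks are not independent replicates.

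**Figure D2:**
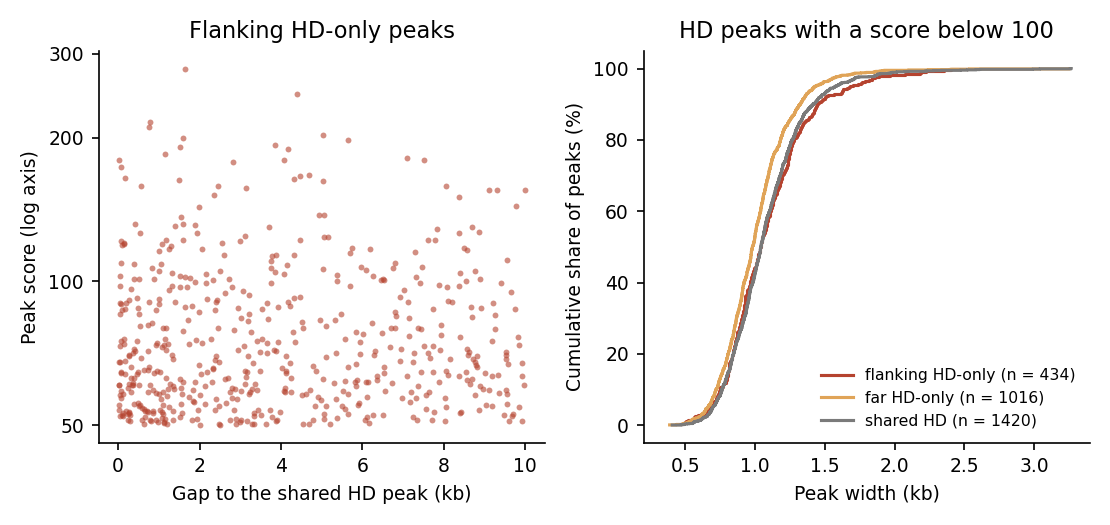
Left, the score of each of the 551 flanking HD-only peaks (log axis) against its gap to the shared HD peak in kb. Right, the cumulative share of HD peaks with a score below 100 by width in kb, where the curve of flanking peaks (median 1038 bp) runs close to that of shared peaks (1042 bp) and to the right of far HD-only peaks (981 bp).

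Values on both sides of the 10 kb limit are given as a description, with positions in mouse genome build mm9 counted from 1. The 2 flanking peaks just inside it lay at chr11:103019743-103021066, with a gap of 9993 bp, a width of 1324 bp and a score of 155.59, and at chr2:90507271-90508479, with 9975 bp, 1209 bp and 60.62. The 2 HD-only peaks just outside lay at chr9:44515855-44517286, with a gap of 10004 bp, a width of 1432 bp and a score of 85.55, and at chr11:115012744-115013952, with 10074 bp, 1209 bp and 66.16. Between 9 and 10 kb were 37 peaks with a median width of 1104 bp and a median score of 67.2, and between 10 and 11 kb were 41 with 1078 bp and 76.6.

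Flanking peaks were found on every autosome and on X. They made up 2.81% of all HD peaks and 4.22% of those on chromosome 4 (3.17 to 5.48%, 53 of 1257), the highest such share. Next were 3.66% on chromosome 19 (2.34 to 5.44%, 23 of 628) and 3.59% on chromosome 11 (2.71 to 4.66%, 54 of 1505). As a share of HD-only peaks the order differed, with 39.1% on chromosome 11, 38.4% on 7, 37.7% on 19 and 37.3% on 4. The lowest autosomal shares of HD peaks were 1.26% on chromosome 16 (0.546 to 2.47%, 8 of 634) and 1.40% on chromosome 14 (0.675 to 2.56%, 10 of 713). On X the share was 1.33% (0.575 to 2.60%, 8 of 603), and on Y none of 5 HD peaks belonged to the set.

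The 10 highest scoring flanking peaks differed in their surroundings. The first lay at chr17:56256401-56257361 (961 bp) and had a score of 279.52. It lay 1651 bp from a weaker shared peak that scored 88.72 in the HD list, and the nearest WT peak was 1908 bp away. The second, at chr11:101309457-101310743 (score 246.98), lay 4400 bp from a shared HD peak with a score of 1361. That shared region covered 1872 bp in HD and 2036 bp in WT.

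At chr13:40828138-40830081, a flanking peak of 1944 bp with a score of 216.4 lay 793 bp from a shared region that covered 2520 bp in HD and 1846 bp in WT. Here both the peak and the longer region added length in HD. Next to it in rank was a peak of 1876 bp with a score of 210.88 at chr10:42298850-42300725. Its shared region, 759 bp away, was almost the same in length, with 3755 bp in HD and 3748 bp in WT. A further flanking peak of that region, with a score of 104.33, lay on the same side at a gap of 8396 bp.

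The fifth and sixth peaks lay at chr4:46215116-46216088 (score 202.7, gap 5025 bp) and at chr11:63738160-63739254 (200.37, 1600 bp). Their shared regions covered 1782 bp in HD and 1793 bp in WT for the first, and for the second 2784 bp in HD and 2631 bp in WT. Seventh was the peak at chr8:124866667-124868101 (score 198.09, gap 5651 bp). The eighth, at chr5:92777333-92778557 (193.23, 3867 bp), flanked a shared peak with a score of 86.34 that covered 883 bp in HD, against 1050 bp in WT. The last 2 lay at chr17:34117819-34119269 (191.63, 1525 bp) and at chr11:78303790-78305047 (189.99, 4186 bp). Of the 10, 2 scored above the shared peak they flanked.

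**Figure D3:**
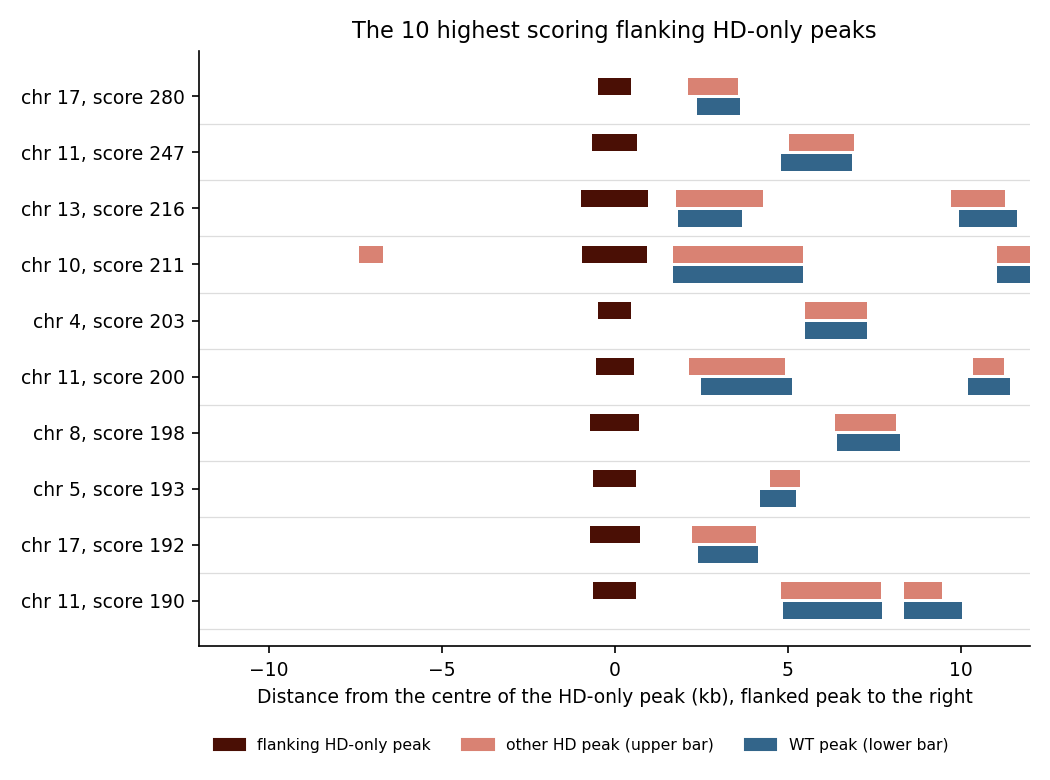
HD peaks (upper bars) and WT peaks (lower bars) within 12 kb of the 10 highest scoring flanking HD-only peaks, as distance in kb from the centre of the HD-only peak and turned so that the flanked peak lies on the right. Rows give the chromosome and the score, from 280 to 190, and no WT bar lies under the dark bars.

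The widest flanking peak, at 3219 bp, lay at chr10:79170833-79174051 with a score of 180.14, only 30 bp beyond the end of a shared HD peak of 4469 bp. The WT peak there covered 4563 bp and ended 75 bp before the flanking peak. Other wide ones were those at chr6:64677335-64680322 (2988 bp, gap 3747 bp) and at chr1:135815477-135818362 (2886 bp, gap 9326 bp). Both were wider than the HD peaks they flanked, of 1029 and 980 bp. The last 2 lay at chr2:26348063-26350579 (2517 bp, gap 4318 bp) and at chr16:45093485-45095891 (2407 bp, gap 86 bp). In the chromosome 16 region 1 HD peak of 3378 bp faced 2 WT peaks covering 2842 bp.

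Among the 5 flanking peaks nearest to a shared peak, gaps were 19 to 23 bp and scores 53.78 to 67.92. They lay at chr1:42767406-42768203, at chr10:119257544-119258472, at chr4:43492106-43492865 and chr4:118785793-118787054, and at chr9:89807516-89808564. The distance to the nearest WT peak divided them. It was 26 bp for the chromosome 10 peak and 25 bp for the first chromosome 4 peak, so the WT peak stopped at nearly the same place as the shared HD peak. For the second chromosome 4 peak it was 857 bp, and the flanked region there covered 5553 bp in HD and 4486 bp in WT. It was 512 bp on chromosome 9 and 299 bp on chromosome 1.

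By the rule each shared HD peak overlaps a WT peak, so a WT peak always lies near a flanking peak, and the distances to it are given as a description. The nearest WT peak lay a median of 3281 bp away (2856 to 3720 bp). It was nearer than the shared HD peak for 302 of the 551, 54.8% (50.5 to 59.0%). A WT peak lay within 1 kb of 124 flanking peaks, 22.5% (19.1 to 26.2%), and within 200 bp of 37. A WT-only peak lay within 10 kb of 18 flanking peaks, 3.27% (1.95 to 5.11%), and of 1.33% of far HD-only peaks (0.779 to 2.13%). Far peaks lie away from shared peaks by the rule. WT-only peaks were sparser there too, with 0.53 per Mb at 10 to 50 kb from shared WT peaks and 0.24 beyond 50 kb. The share over all HD peaks was not computed.

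The shared HD peaks beside the set were of ordinary width and lower score. The 529 flanked shared peaks had a median width of 2168 bp and a median score of 783 (quartiles 220 and 2134), against 2162 bp and 1377 (quartiles 361 and 2437) in the other 17277 shared HD peaks. A flanked peak with a score of at least 1000 was found for 249 flanking peaks, 45.2% (41.0 to 49.5%), while 58.5% of all shared HD peaks scored that high. The flanking peak had the higher score in 33 of the 551 cases and was the wider in 52. In the median it had 51.2% of the width of its shared peak.

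For the change in length, overlapping peaks of both libraries were joined into regions, and the length covered in HD was divided by that covered in WT. Flanking peaks lay beside 529 of the 17367 shared regions, 3.05%. Most of these, 509, had 1 flanking peak, 18 had 2 and 2 had 3. The rule compared the same peak lists, so the length values below are descriptions.

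Regions with a flanking HD-only peak were less shortened in HD than other regions. Their median log2 ratio of HD over WT length was -0.036 (-0.062 to -0.020), that is -2.48% in length, with quartiles of -0.19 and 0.10. In the 16838 shared regions with no flanking HD-only peak it was -0.092 (-0.095 to -0.088), or -6.15%. HD covered more than WT in 214 of the 529, 40.5% (36.2 to 44.8%), beside 30.8% over all shared regions. With a gap limit of 5 kb the flanked median was -0.019 (-0.053 to 0.003, n = 340). With HD peaks scoring at least 100 it was -0.032 (-0.082 to 0.011, n = 104). Over 1.5-fold longer in HD were 9 of the 529, or 1.70% (0.781 to 3.21%), beside 0.749% over all shared regions. Over 1.5-fold shorter were 7, or 1.32% (0.534 to 2.71%), beside 2.79%. More HD than WT peaks were found in 19 flanked regions, 3.59% (2.18 to 5.55%), beside 2.13%. Of these, 16 were in the highest quartile of shared regions by mean length. There the share was 9.82% in flanked regions (5.72 to 15.5%) and 6.87% in the others (6.12 to 7.68%), and the intervals overlapped.

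Regions with WT-only neighbours lay on the other side of the general median. The 294 shared regions flanked by a WT-only peak had a median log2 ratio of -0.12 (-0.16 to -0.088), and HD covered more in 23.1% of them (18.4 to 28.4%). None of the 294 was over 1.5-fold longer in HD (0 to 1.25%), and this interval contains the 0.749% of all shared regions. Over 1.5-fold shorter were 18, or 6.12% (3.67 to 9.50%), beside 2.79% over all shared regions. The 16559 regions with neither kind of flanking peak lay between, at -0.091 (-0.094 to -0.088), with HD covering more in 30.6% (29.9 to 31.4%). The interval of the median overlapped that of regions with WT-only neighbours, and that of the share did not. Both kinds flanked 15 regions, and without these the regions with an HD-only neighbour kept a median of -0.036 (-0.062 to -0.019, n = 514).

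**Figure D4:**
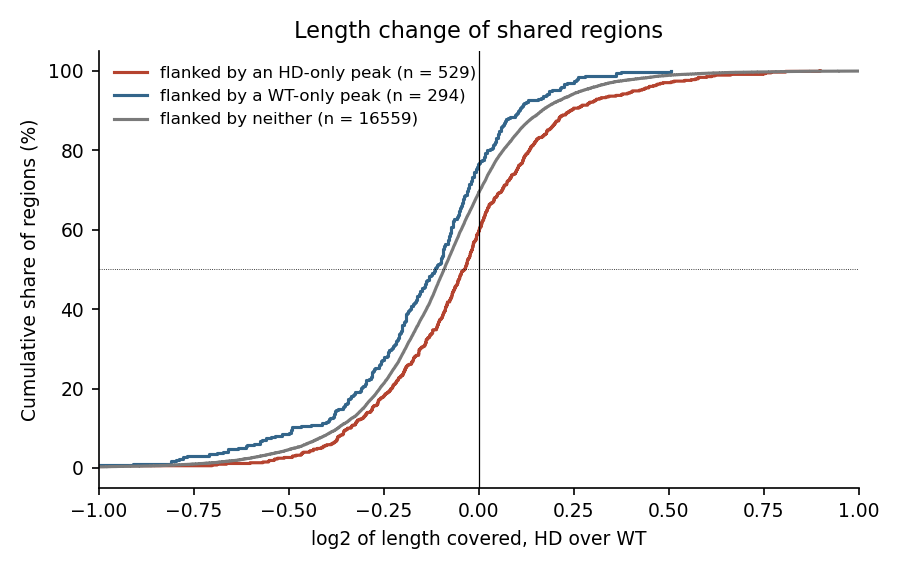
Cumulative share of shared regions by log2 of the length covered in HD over WT, for regions flanked by an HD-only peak (n = 529), by a WT-only peak (n = 294) and by neither (n = 16559). The 15 regions with both are in the first 2 curves, 69 of all 17367 regions lie outside the plotted range, and the curve of HD-only neighbours lies to the right of the others.

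Flanked regions were weaker than the rest and more often at either end of the range of length, so the comparison was repeated within classes. Of the 529, 162, 95, 109 and 163 lay in the quartiles of mean length, from the shortest to the longest. In the lowest quartile of shared regions by mean length, the median log2 ratio was -0.009 in 162 flanked regions (-0.050 to 0.028) and -0.11 in 4182 others (-0.12 to -0.100). In the second quartile it was -0.031 (-0.088 to 0.002) and -0.089 (-0.096 to -0.082), with intervals that overlapped. In the third quartile the medians were -0.086 (-0.14 to -0.034) and -0.094 (-0.100 to -0.088) and could not be told apart at this number of regions. In the highest quartile they were -0.044 (-0.070 to -0.017) and -0.082 (-0.088 to -0.077). A WT length of 4 kb or more was found in 90 flanked regions, 17.0% (13.9 to 20.5%), against 10.2% of the others (9.78 to 10.7%).

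Within quartiles of HD score the order was the same. A WT peak long enough to reach an HD-only peak takes it out of the set. Classes by length or score do not remove this limit, so they remain descriptions. In the lowest score quartile the median was -0.001 in 184 flanked regions (-0.054 to 0.032) and -0.10 in the others (-0.11 to -0.093), and HD covered more in 92 of the 184. In the second it was -0.032 (-0.062 to 0.001) and -0.077 (-0.084 to -0.069). In the third it was -0.046 (-0.095 to -0.013) and -0.089 (-0.096 to -0.085), with intervals that overlapped. In the highest score quartile it was -0.070 (-0.099 to -0.031) and -0.097 (-0.10 to -0.092), and the intervals overlapped again.

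By distance to the flanking peak the medians had no clear order, while the share of regions longer in HD was higher at short gaps. Where the nearest flanking peak lay under 1 kb away, the median log2 ratio was -0.013 (-0.034 to 0.017, n = 115), and HD covered more in 48.7% of regions (39.3 to 58.2%). It was -0.050 at 1 to 2 kb (-0.16 to 0.049, n = 80), -0.029 at 2 to 5 kb (-0.10 to 0.011, n = 145) and -0.056 at 5 to 10 kb (-0.083 to -0.034, n = 189). All 4 intervals of the medians overlapped. HD covered more in 45.0% of regions at 1 to 2 kb and in 43.4% at 2 to 5 kb. At 5 to 10 kb the share was 31.2% (24.7 to 38.3%), beside 30.8% over all shared regions. The intervals of the nearest and farthest class did not overlap. The gap is measured from the edge of the shared HD peak, and no WT peak may reach the flanking peak. Gap and length ratio are thus tied by the rule, so this order is only a description.

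Whether the shared peak reached toward its neighbour was read from the edges of 496 regions with 1 peak of each library and flanking peaks on 1 side. Shifts of the HD edge relative to the WT edge are given as positive when outward. The median shift was -29.5 bp on the facing side (interval -53 to -9) and -31.5 bp on the far side (-53 to -16), so both edges lay slightly inside those of WT. The difference between facing and far side had a median of 9.5 bp (-17 to 50) and was positive in 257 of the 496. Among HD peaks scoring at least 100 this difference was 80.5 bp (11 to 132) in 96 regions. Edges of regions with no flanking HD-only peak had a median shift of -64 bp (-67 to -62).

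Only under 1 kb did the sides differ in sign, with a facing shift of 9.5 bp (-24 to 43) and a far shift of -56.5 bp (-110 to -6) in 98 regions. The intervals overlapped, and the difference had a median of 53 bp (-3 to 133). At such short gaps the rule itself limits where the facing edges can lie, since neither the WT peak nor the shared HD peak may touch the flanking peak. At 2 to 5 kb the shift was -60 bp on the facing side (-93 to -15) and -12.5 bp on the far side (-45 to 31), and the difference within regions had a median of -2 bp (-81 to 57).

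**Figure D5:**
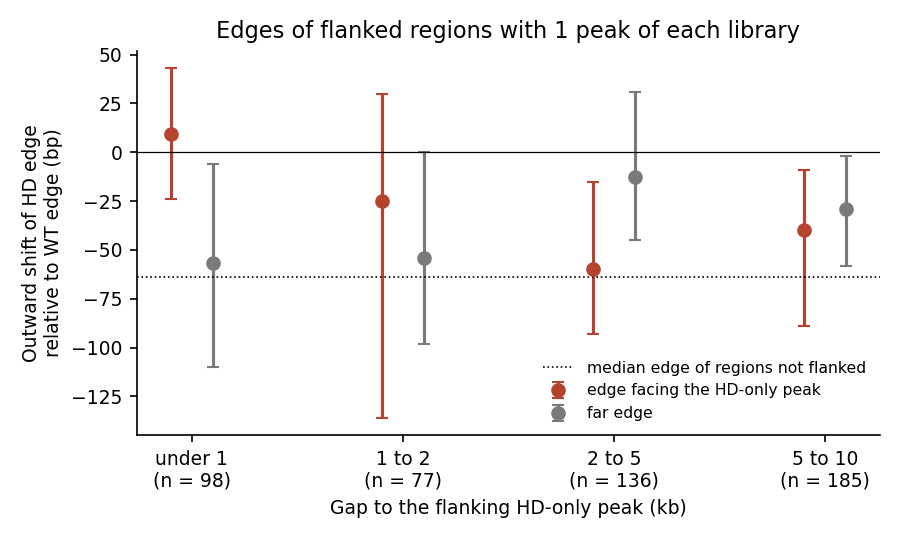
Median shift of the HD edge relative to the WT edge in bp (positive is outward), on the side facing the flanking HD-only peak and on the far side, by gap in kb. Bars are 95% order-statistic intervals over regions, the dotted line is the median of -64 bp for edges of regions that were not flanked, and in each class of gap the intervals of the sides overlap.

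Single regions departed widely from these medians. The largest gain among flanked regions lay at chr11:66837804-66839544, with 1741 bp in HD, against 934 bp in WT (log2 ratio 0.90). The HD-only peak, with a score of 53.69, lay 2855 bp to its left, the side on which the HD peak had gained 772 bp. At chr11:53670488-53673604 the region covered 3117 bp in HD and 1781 bp in WT (0.81), and the flanking peak lay 6742 bp to the left. There the HD peak had gained 1212 bp on that same side. That at chr13:56352554-56354447 covered 1885 bp in HD and 1106 bp in WT (0.77), with a flanking peak that scored 162.28, above the 109.34 of the shared HD peak. This HD peak had gained 788 bp on its left, and the flanking peak lay on its right.

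At chr5:33775710-33777686 the shared region covered 1977 bp in HD and 1172 bp in WT (0.75), and its flanking peak of 1743 bp with a score of 126.26 lay 538 bp away. With peaks within 1 kb joined, the flanking peak became part of this region, and the ratio was 1.86. The WT length stayed at 1172 bp and a flanking peak has no WT overlap by the rule, so this ratio could only rise. The fifth gain, at chr4:133023590-133025669, was of 2080 bp in HD, against 1238 bp in WT (0.75). In both regions the HD peak had gained most on the facing side, by 616 bp on chromosome 5 and 716 bp on chromosome 4. The WT peak scored 69.37 on chromosome 5 and 241.86 on chromosome 4, on the scale of its own list.

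The largest loss beside an HD-only peak lay at chr4:97448685-97452950, with 889 bp in HD and 4266 bp in WT (-2.26), which was the largest loss of all 17367 shared regions. The HD-only peak began at 97453789, 838 bp beyond the end of the WT peak and 2336 bp beyond that of the HD peak, which had a score of 53.1. At chr11:98180851-98183225 the region covered 1152 bp in HD and 2375 bp in WT (-1.04), and the WT peak came within 58 bp of the HD-only peak while the HD peak stayed 952 bp away. Joining peaks changed both values. When peaks of a list within 1 kb were merged, an alternative added after the values were seen, the chromosome 4 ratio became -0.49, from 10855 bp in HD, against 15232 bp in WT. On chromosome 11 the HD-only peak then joined the shared one and the ratio turned to 0.49, with 3346 bp in HD, against 2375 bp in WT. The rise was set by the rule, since no WT peak overlaps the HD-only peak and the WT length did not change.

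The other 3 losses were at chr1:135804191-135806150, with 980 bp in HD and 1939 bp in WT (-0.98), at chr6:114868674-114872306, with 2237 bp in HD, against 3605 bp in WT (-0.69), and at chr17:51949819-51953845, with 2654 bp in HD, against 4027 bp in WT (-0.60). The edge facing the flanking peak shifted by 21 bp on chromosome 1, 28 bp on chromosome 6 and -1033 bp on chromosome 17. The far edge shifted by -980, -1396 and -340 bp in the same order. The chromosome 6 region was clearly marked in both libraries, with a score of 1624 in the HD list and 1697 in the WT list, and its ratio was -1.44 with peaks within 1 kb joined.

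The regions with 3 flanking peaks were short and weak in WT. At chr7:52668469-52669878 the region covered 1384 bp in HD and 1201 bp in WT (0.20), and the HD-only peaks began at 52660432, 52661539 and 52670619, with scores of 63.44, 114.64 and 66.31. At chr12:120084671-120086109 it covered 1435 bp in HD and 1036 bp in WT (0.47), and the HD-only peaks began at 120074926, 120086487 and 120093038, with scores of 130.4, 101.02 and 68.01. With peaks within 1 kb joined, each of these regions took in 1 of its flanking peaks, and the ratios were 1.46 and 1.56. The WT lengths stayed the same and a flanking peak has no WT overlap by the rule, so these ratios could only rise. Of the regions with 2 flanking peaks the longest by the mean of both libraries lay at chr9:102618982-102624393, with 5402 bp in HD and 5374 bp in WT, and both its HD-only peaks, 40 and 3923 bp away, lay on its right. Its log2 ratio was 0.0075, and 0.30 once the nearer of these was joined to it, again with the WT length unchanged.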

How the data were processed

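The authors deposited 1 list of H3K4me3 peaks per library, from 1x50 bp reads, with a start, an end and a score for each peak. Per the files, each peak is named after the caller MACS, whose version, settings and control are not stated in the labels or files. In both lists the deposited score lies between 50.01 and 3233.06. Its unit is not named, and 2184 HD peaks and 448 WT peaks share the value 3100. Tools named in the submitters' processing notes are BWA 0.5.9, CASAVA 1.8.2 and SAMtools, with the builds NCBIM37 and mm9. The files hold no read counts, so depth is unknown.

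Gaps, regions and edges were computed with scipy 1.17.1, pandas 2.3.3 and numpy 2.4.6 under Python 3.11.15, and figures with matplotlib 3.10.9, after a check on simulated lists. Shares have exact (Clopper-Pearson) and medians order-statistic 95% intervals. No p-value was computed. Densities divide peaks by the sequence at that distance from shared peaks, within the span of the list on each chromosome.

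The set and the measures were chosen with earlier results of these data known. Named regions are the 10 highest scoring, 5 widest and 5 nearest flanking peaks, the 5 largest gains and 5 largest losses among flanked regions of 1 kb or more in mean length, the 3 regions with the most flanking peaks (ties by mean length) and 2 peaks on each side of the limit. A second flanking peak of the chromosome 10 region was chosen once its values had been seen. Alternatives were other gap limits and overlap rules, a minimum score of 100, equal list lengths, joined peaks and autosomes only. Genes, sequence and tissue markers were not analysed here, because the tables used cover another genome build.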

Additional observations from a re-analysis of the deposited data

How the results depend on the processing

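The 551 flanking HD-only peaks became 350 with a gap limit of 5 kb, 835 with 20 kb, 948 with a reciprocal overlap of 50%, 342 with equal numbers of top scoring peaks and 108 when HD peaks had to score at least 100. Their share of HD-only peaks, 30.2%, became 19.2% with 5 kb, 45.8% with 20 kb, 39.7% with reciprocal overlap, 25.2% when any WT peak within 1 kb was a counterpart and 25.5% with peaks within 1 kb joined. The median score of 69.4 became 75.9 with reciprocal overlap, 87.1 with equal numbers and 120.5 with the minimum score, which removes low scores by construction. The median gap of 3333 bp became 1605 bp with 5 kb, 6690 bp with 20 kb and 1436 bp with reciprocal overlap, and lay between 3417 and 4547 bp under the other 5. The median log2 length ratio of flanked regions, -0.036, was -0.019 (interval -0.053 to 0.003) with 5 kb. It lay between -0.056 and -0.032 under the other 7 alternatives. With the minimum score of 100 it was -0.032 (-0.082 to 0.011, n = 104), so this interval also reached positive values. The facing minus far edge shift of 9.5 bp became 80.5 bp (11 to 132) with the minimum score of 100, in 96 regions; the cause was not tested. It lay between 7 and 39.5 bp under the others. Of the 13 flanked regions named, the one on chromosome 11 with a log2 ratio of -1.04 reversed to 0.49 with peaks within 1 kb joined, tried after its value was seen, because its HD-only peak then became part of it. No paired analysis was possible because there is a single library for HD and for WT. Unknown depth limits what the absence of a weak WT peak can show.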
